A study of Drosophila sechellia and Drosophila simulans with 8 samples.

Results

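Bodies of adult Drosophila sechellia females kept with a choice were compared with bodies of adult D. sechellia females kept without one, on 4 of the 8 arrays in the series. The arrays were taken by their titles: the 2 arrays named sechellia bodies, choice, and the 2 named sechellia bodies, no choice. The treatment concerns octanoic and hexanoic acid, given as a blend. Neither the alternatives on offer nor the length of the exposure or the age of the flies is given in the sources used here. The other 4 arrays hold D. simulans females, 2 in choice and 2 in no choice, and enter only as a shared measure of spread and as a second species for the same contrast. All flies were reared at 25 °C on an agar, yeast and cornmeal diet, RNA was taken from bodies with TRIzol and a column, and labelled cRNA was made from 7 micrograms. Arrays 1 and 2 of a group are distinguished by number alone, and nothing in the labels ties them to separate flies. The p-values therefore measure only how these samples vary, a spread that may be technical. Every probe set was designed for D. melanogaster, and gene symbols are those of that species.

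In the wild D. sechellia lives on noni, the Morinda citrifolia fruit, whose octanoic and hexanoic acid are toxic to most related flies. A female body holds 2 organs whose products fill much of its RNA. The midgut secretes trypsins, Jonah proteases and lipases that digest food. The ovary wraps each maturing egg in a vitelline membrane and then a chorion, both made by the follicle cells in the last stages of oogenesis, and supplies the egg with RNAs that pattern and divide the early embryo.

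Sechellia choice array 1 stood apart from the other 7 arrays in its signal range. Its median signal was 316.7 and its SD on the log2 scale 1.58, against medians of 110.7 to 129.8 and SDs of 2.68 to 2.80 elsewhere. The 27 control probe sets for Bacillus genes, taken as background, had a median signal of 126.4 there and of 12.3 to 21.5 elsewhere. Its Pearson r with choice array 2 across 18769 probe sets was 0.78, whereas arrays of the other 3 groups correlated with their partners at 0.949 to 0.953. As deposited, the median probe set lay 1.19 higher on choice array 1 than on the no choice arrays, on the log2 scale, and 0.04 higher on choice array 2. For that reason a change on choice array 1 is given below after quantile normalisation, which gives all arrays 1 common distribution of signal, and tests were run with all 8 arrays and with 7, without choice array 1. With 7 arrays the choice group is array 2 alone, and its spread is assumed to equal that of the other groups. The log2 ratio of the 3′ to the 5′ actin control, a measure of RNA integrity, was 1.55 and 1.33 in no choice and 1.06 and 0.93 in choice, and that of eIF-4a was 1.64 and 1.63 against 1.35 and 1.38. The GAPDH ratio lay at -0.02 and -0.18 in no choice and at 0.17 and -0.17 in choice, where the groups overlap. The part of RNA integrity in the results that follow was not tested.

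**Figure D1:**
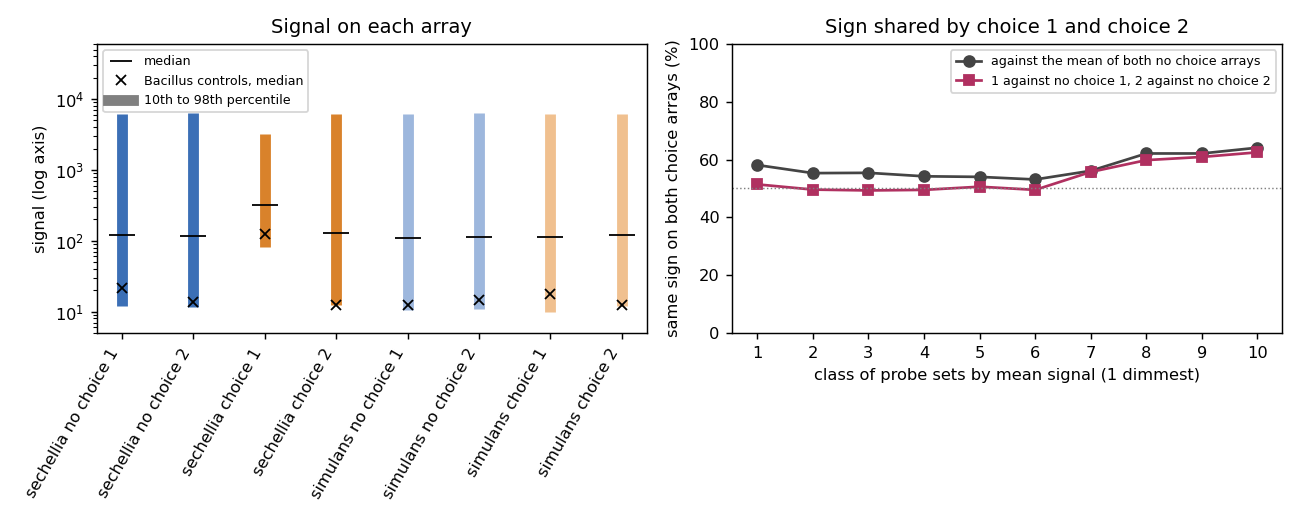
Left, for each of the 8 arrays, the bar spans the 10th to the 98th percentile of deposited signal over 18769 probe sets on a log axis, the dash marks the median and the cross the median of 27 Bacillus controls: sechellia choice array 1 has the shortest bar, the highest median (316.7) and the highest cross (126.4). Right, the percentage of probe sets whose change has the same sign on both sechellia choice arrays, in 10 classes of equal size by mean signal, numbered from the dimmest, with the no choice arrays shared between the changes or not: both lines are highest in the brightest class, at 64.1% and 62.5%.

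The signs of change on the 2 choice arrays were compared first. After quantile normalisation 10780 of 18769 probe sets (57.4%) changed in the same direction on both, 5402 of them upward (28.8%) and 5378 downward (28.7%). Both of these changes are measured from the same no choice arrays, which by itself pulls their signs together. When choice array 1 was set against no choice array 1 and choice array 2 against no choice array 2, so that no array was shared, the share was 53.9%, and with the no choice arrays exchanged it was 54.2%. Shared signs were concentrated among bright probe sets: with no array shared, the share lay between 49.3% and 51.4% in the 6 dimmest of 10 classes by mean signal and rose to 62.5% in the brightest. At least 2-fold changes on both arrays were shown by 1122 probe sets (5.98%), 729 higher (3.88%) and 393 lower (2.09%) in choice.

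Probe sets that changed on choice array 2 were looked up on choice array 1. In the fit of choice array 2 against no choice array 2 alone among the sechellia arrays, 137 probe sets passed an adjusted p of 0.05. Each sechellia group then holds 1 array, so the spread in this fit comes from the simulans arrays alone and is assumed to hold for sechellia. On choice array 1 against no choice array 1, 108 of these (78.8%) had the same sign, compared with 54% for all probe sets in that pairing. With the no choice arrays exchanged it was 113 of 144 (78.5%), compared with 54.2%. For the higher calls the shares were 88 of 115 and 91 of 117, and for the lower calls 20 of 22 and 22 of 27. Over all probe sets, the share of equal signs in the first pairing was 59.8% to 62.5% in the 3 brightest classes. No share matched to the brightness of the called probe sets was computed. Choice array 1 tended to lie lower among bright probe sets, 62.7% of which were below the no choice mean in the 3 brightest classes. The upward calls went against the general direction of that array and the downward calls went with it.

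With all 8 arrays, limma called 9 of 18769 probe sets (0.048%), and all 9 were higher in choice. They hold 8 named genes, among them digestive proteins (Jon65Aiv, CG6295), an eggshell protein (Cp16) and an acyl-CoA-binding protein (Acbp5), and 1 probe set with no gene symbol. Quantile normalisation of the 8 arrays gave 20 calls (0.107%), 18 higher (0.0959%) and 2 lower (0.0107%). With 7 arrays 248 were called (1.32%), 167 higher (0.89%) and 81 lower (0.432%). All 9 and all 20 were among the 248, in the same direction, and 4 probe sets, those for Jon65Aiv, CG2233, CG13114 and Cp16, were called in all 3 fits. The other 223 probe sets of the 248 were called in neither 8-array fit, and these include every gene below for which only a 7-array test is given. The count of 9 rests on every array: it was 1 without either no choice array, 2 without any 1 simulans array, 248 without choice array 1 and 11818 without choice array 2, when the group is the array that stands apart. A fit of the 4 sechellia arrays alone, with 2 residual degrees of freedom, called 0 by limma, with 687 at an unadjusted p below 0.05. Of the 9, the one nearest the threshold was CG6295 at an adjusted p of 0.0475, and the nearest probe sets outside it were those of BomS2 at 0.077 and CG13083 at 0.0888, the latter named because it lies next to the threshold.

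Jon65Aiv encodes a serine protease of the Jonah family, secreted in the midgut. Its signal was 4.6 and 7.9 on the no choice arrays and 320.4 and 214.2 on the choice arrays. The choice arrays were far above both no choice arrays, which lay below their own Bacillus controls at 21.5 and 13.5. On choice array 1 these controls stood at 126.4. The log2 change was 5.44 ± 0.29 (SE, limma, adjusted p = 0.000174, 2 arrays per group), and 5.15 ± 0.26 with 7 arrays. Because both no choice signals lie below background, the change is a bound: choice array 2 was at least 12.6-fold higher than background. On the simulans arrays the signal was 13031.1 and 15083.1 in no choice and 15486.8 and 15647 in choice, so choice array 2 of sechellia reached 1.45% of the simulans mean and the no choice arrays 0.0311% and 0.0535%. Since the probes match another species, these species levels can differ through sequence as well as RNA.

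CG2233, a gene to which the annotation used here gives no name, had signals of 297.8 and 274.7 in no choice and 1833.7 and 1576.6 in choice. Both choice arrays were higher than both no choice arrays by several fold, and all 4 signals lay above the Bacillus controls. The change was 2.57 ± 0.19 on the log2 scale (adjusted p = 0.00161). CG13114, likewise unnamed, moved from 639.1 and 680.2 to 2485.4 and 2876.5, a change of 2.02 ± 0.20 (adjusted p = 0.00843). CG43333 moved from 155.8 and 177.8 to 665.1 and 704.9, a change of 2.04 ± 0.22 (adjusted p = 0.0156), and was not called after quantile normalisation (adjusted p = 0.112). In these 3 genes each pair of replicate arrays lay close together while the groups were far apart. The simulans choice changes for the 3 genes, of -0.09, -0.29 and -0.15, did not pass the test.

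Acbp5 and CG5568 were called with 8 arrays at low signals. Acbp5, an acyl-CoA-binding protein of the family that carries fatty acyl-CoA esters inside cells, had signals of 17.8 and 15.6 in no choice and 111 and 84.3 in choice, a change of 2.54 ± 0.22 (adjusted p = 0.00442). CG5568, which the annotation does not name, had 8.9 and 11.5 against 127.2 and 79.3, a change of 3.31 ± 0.36 (adjusted p = 0.016). The groups are apart in both genes, but on choice array 1 the Acbp5 signal lies below, and the CG5568 signal barely above, the 126.4 of the Bacillus controls. Neither was called after quantile normalisation (adjusted p = 0.464 and 0.4). Both were called on choice array 2 alone, with changes of 2.34 ± 0.12 and 2.97 ± 0.25. For CG5568, whose no choice signals lie below their Bacillus controls, the bound on array 2 is at least 4.65-fold.

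Among the listed groups the eggshell had the largest share of called genes. Of the 20 listed genes for chorion, vitelline membrane and eggshell, 15 rose and 1 fell with 7 arrays, where 1.24% of 11982 genes rose and 0.551% fell. After quantile normalisation 17 of the 20 were higher on both choice arrays and 15 had choice arrays that did not overlap the no choice arrays, against 27.6% and 19% of all genes. With 8 arrays, 7 of the 20 were called higher after quantile normalisation and 1 as deposited. Since whole bodies were ground, more follicle cells at the stage of eggshell synthesis and more RNA per such cell cannot be told apart.

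All 7 listed chorion genes, Cp15 among them although the rule for naming genes did not select it, were higher on both choice arrays after quantile normalisation, and none of their groups overlapped. Cp36 and Cp38 encode the major chorion proteins made early in choriogenesis and, with Cp7Fc, belong to the gene cluster on the X chromosome of D. melanogaster that follicle cells amplify. Cp36 had signals of 4517.4 and 4834.1 in no choice and 6636.9 and 16426.5 in choice. Cp38 had 6108.3 and 6643.4 against 8570.9 and 21115.9. Cp7Fc had 716 and 769.6 against 1681 and 3526.3. For all 3 genes the choice arrays were above both no choice arrays even as deposited, as in 28.9% of all probe sets, array 2 by more than array 1, whose brightest signals are compressed. In the quantile-normalised fit of 8 arrays Cp36 rose by 1.63 (adjusted p = 0.00191), Cp38 by 1.52 (adjusted p = 0.00191) and Cp7Fc by 1.93 (adjusted p = 0.0143).

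The other chorion genes, Cp15, Cp16, Cp18 and Cp19, form the amplified cluster on the third chromosome of D. melanogaster. Cp16 had signals of 1139.1 and 1073.7 in no choice and 3450.7 and 4470.5 in choice, and was the only chorion gene called with the 8 arrays as deposited, at 1.83 ± 0.22 (adjusted p = 0.0388). Cp19 had 2739.4 and 2911.1 against 4159.6 and 11755.5, and was called after quantile normalisation (1.72, adjusted p = 0.0116). Cp18 had 2598.3 and 2575.9 against 2987.1 and 8474.5, and was called with 7 arrays (1.71 ± 0.08, adjusted p = 3.93e-05) but not with 8 quantile-normalised arrays (adjusted p = 0.0692). As deposited the choice arrays of these 3 genes lay above no choice without overlap, as in 28.9% of all probe sets. Cp15, expressed late in choriogenesis, had 3582.7 and 3261.9 against 2666.2 and 4828.2, so its groups overlapped as deposited and separated only after quantile normalisation, by 0.53 and 0.51. It was not called with 7 arrays (0.50 ± 0.10, adjusted p = 0.0583).

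The direction of the chorion genes on choice array 1 depends on the scaling. Its median change there was 1.49 after quantile normalisation, 1.70 after cyclic loess and 0.51 as deposited, with 7, 7 and 6 of 7 genes higher, and -0.92 after median centring, with 1 of 7 higher. Median centring also moved the median of the 9562 brighter genes on that array to -1.27. On choice array 2 all 7 were higher under each of the 4 scalings, with medians between 1.68 and 1.85.

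**Figure D2:**
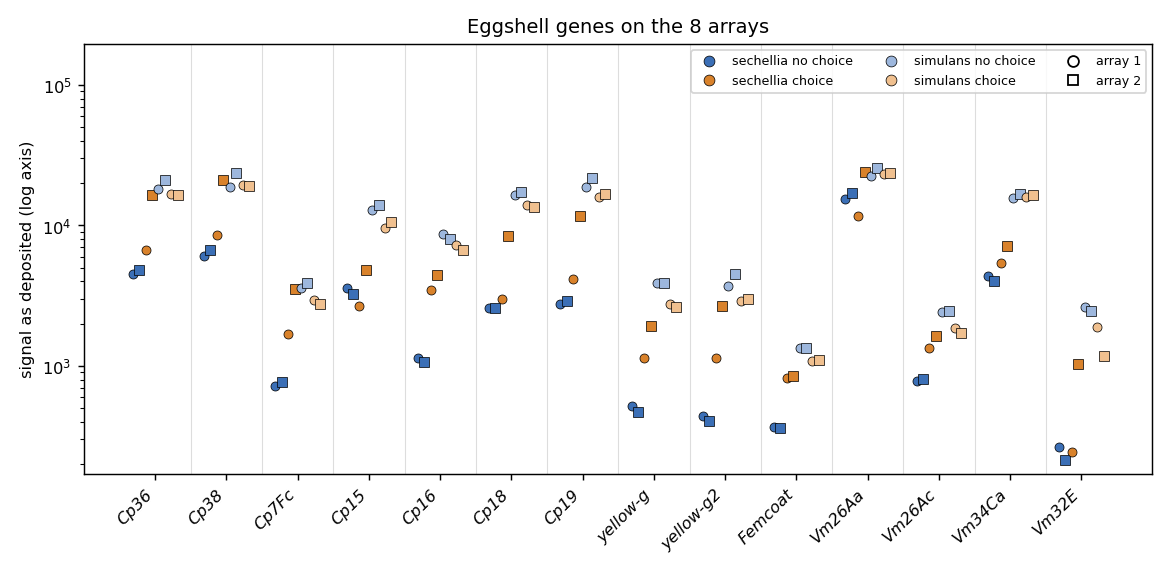
Deposited signal (log axis) of 14 eggshell genes on each of the 8 arrays, with colour for the group, circles for array 1 and squares for array 2. Except for Cp15, Vm26Aa and Vm32E, both sechellia choice points lie above both sechellia no choice points, while the simulans choice points tend to lie at or below the simulans no choice points.

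Among the other eggshell genes, yellow-g and yellow-g2, whose products are needed to cross-link the eggshell, were higher on both choice arrays. The yellow-g signal was 515.2 and 468.6 in no choice and 1143 and 1920.9 in choice, and that of yellow-g2 was 440.3 and 405.4 against 1135.5 and 2670.5. As deposited the choice arrays of each gene lay above no choice without overlap, as in 28.9% of all probe sets. Array 2 was the higher of the choice arrays. The quantile-normalised fit of 8 arrays called yellow-g (1.64, adjusted p = 0.0296) but not yellow-g2 (2.08, adjusted p = 0.0942), and with 7 arrays the changes were 1.97 ± 0.09 and 2.66 ± 0.12 (adjusted p = 3.98e-05 and 3.93e-05). Femcoat, a follicle cell gene of the chorion, had 368.4 and 359.5 against 822.4 and 842, with the choice arrays close together and well above no choice. It rose by 1.21 ± 0.10 with 7 arrays (adjusted p = 0.00143).

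The vitelline membrane genes gave a smaller and less uniform change. Vm26Ac had signals of 783.2 and 807.6 in no choice and 1334.8 and 1623.2 in choice, and Vm34Ca had 4363.6 and 4000.3 against 5420.4 and 7193.5. Both choice arrays were higher for each gene, by 1.03 ± 0.09 and 0.78 ± 0.09 with 7 arrays (adjusted p = 0.00161 and 0.00445). Vm26Aa, one of the brightest, had 15543.7 and 16900.9 against 11616.5 and 24043, and its groups separated only after quantile normalisation, where it was called at 0.48 (adjusted p = 0.0114). Vm32E had 265.4 and 214.6 against 243.3 and 1029.3. It rose on choice array 2 (2.11 ± 0.24, adjusted p = 0.00564) and was 1.5 lower on choice array 1, so its rise rests on array 2. The gene fs(1)N, which acts in eggshell integrity and torso signalling, went the other way, from 2947 and 2960.1 to 1106.5 and 2102.7, and fell by 0.49 ± 0.08 with 7 arrays (adjusted p = 0.0291). Also called higher with 7 arrays were psd (0.73), a vitelline membrane component, and ndl (0.72), a protease laid down around the egg, the latter only 0.05 higher on choice array 1.

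The same choice contrast in D. simulans ran the other way or near 0 for these genes. The log2 change between simulans choice and no choice lay between -0.41 and -0.13 for the 7 chorion genes and was below 0 for 18 of the 20 eggshell genes. None of the 20 passed the test in simulans. The difference between the species' choice effects, tested as an interaction, was called for 15 of the 20 with 7 arrays as higher in sechellia, where 0.661% of probe sets were, including all 7 chorion genes. The interaction value was 2.04 ± 0.14 for Cp36 (adjusted p = 0.000357), 2.27 ± 0.12 for Cp16 and 3.14 ± 0.16 for yellow-g2 (both adjusted p = 0.000105). With the 8 arrays as deposited no eggshell gene passed the interaction test, and after quantile normalisation Cp36 (1.75 ± 0.11) and Cp38 (1.57 ± 0.11) did, both at an adjusted p of 0.0177. The interaction shares the sechellia arrays with the contrast above and is no separate support for it.

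Other lists of ovary genes had few calls, and those few were lower. Counts at an unadjusted limma p below 0.05 with 7 arrays, here and below, stand beside 15.9% of all genes. The 6 genes of yolk and yolk uptake gave 0 calls by limma with 7 arrays, with 2 at an unadjusted p below 0.05, and the 24 genes of the piRNA pathway, which silences transposons in the germ line, gave 0, with 3. Yp1, a yolk protein made in fat body and follicle cells, changed by -0.18 on choice array 1 and 0.09 on choice array 2, in opposite directions. Of 25 maternal axis and germ plasm genes, 2 fell and 0 rose with 7 arrays, and 15 were lower on both choice arrays after quantile normalisation, against 30.4% of all genes and 33.2% of the brighter genes. The medians were -0.41 and -0.15 on choice arrays 1 and 2, where all genes had -0.05 and -0.01 and the brighter genes -0.18 and -0.01. Every member of this list and of the next is a brighter gene. The share and medians of the brighter genes are therefore the ones to set beside both lists. Of 32 replication and cell cycle genes 1 fell, 0 rose and 21 were lower on both, with medians of -0.38 and -0.16.

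The gene tor encodes the receptor tyrosine kinase Torso, supplied by the mother to pattern the ends of the embryo. Its signal was 1926.7 and 1962.4 in no choice and 130.9 and 817.2 in choice. Both choice arrays were lower, array 1 near its own Bacillus controls, and the fall on array 2 was 1.25 ± 0.10 (log2 change -1.25, adjusted p = 0.000712 with 7 arrays). The gene gcl, needed for germ cell formation, had 5085.5 and 4982.8 against 2226.9 and 3749, and its change was -0.43 ± 0.07 with 7 arrays (adjusted p = 0.0371). Cks30A, a partner of Cdk1 in the meiotic and early divisions, had 2460.3 and 2504.2 against 1092.8 and 1428.4, a change of -0.80 ± 0.08 with 7 arrays (adjusted p = 0.00334). In all 3 genes both choice arrays lay below both no choice arrays as deposited, as in 13.1% of all probe sets. The brightest signals of choice array 1 are compressed, and the part of this in the low values there was not tested. No call was made with 8 arrays. In simulans the change of Cks30A was also below 0, at -0.40, and the interaction did not pass for it (adjusted p = 0.141), while it did for tor (-1.41, adjusted p = 0.0018) and gcl (-0.53, adjusted p = 0.0444).

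Digestive genes were the other group with many changes. Of 89 listed genes for proteases, lipases, carbohydrases and acyl-CoA-binding proteins, 15 rose and 1 fell with 7 arrays, where 1.24% of all genes rose and 0.551% fell. With 8 arrays 3 of the 89 were called higher as deposited and 3 after quantile normalisation. The 13 Jonah proteases had 6 rises and 1 fall, the 10 Greek-letter trypsins 2 rises, the 27 further serine proteases 4 rises, and the 21 lipases 2 rises. The 12 genes for amylase and maltases, which digest starch and sugars, gave 0 calls by limma with 7 arrays, with 6 at an unadjusted p below 0.05. Medians on choice arrays 1 and 2 were 1.45 and 1.13 for the Jonah proteases and 0.98 and 0.46 for the further serine proteases. Under the 4 scalings 9 to 13 of the 13 Jonah genes were higher on choice array 1 and 10 on choice array 2.

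Jon25Bii, a midgut Jonah protease, had signals of 616.1 and 659.1 in no choice and 1720.5 and 3003.4 in choice. The choice arrays were well above no choice, and it was called after quantile normalisation of 8 arrays (2.04, adjusted p = 0.00191) and with 7 arrays (2.24 ± 0.09, adjusted p = 3.22e-05). Jon25Bi had 62.2 and 83.1 against 630.2 and 203.2, Jon65Aiii had 2976 and 2553.4 against 3980.4 and 5260.7, and Jon74E had 374.2 and 265.3 against 710.4 and 752.5. As deposited their choice arrays lay above no choice without overlap, as in 28.9% of all probe sets. With 7 arrays they rose by 1.5, 0.93 and 1.26. Within the family there were exceptions. Jon65Ai had 354.5 and 375.1 against 260.6 and 1314.5, so that it rose by 1.85 ± 0.09 on array 2 (adjusted p = 3.98e-05) and lay 1.94 lower on array 1. Jon25Biii had 108.7 and 100.7 against 162.6 and 54.1, with a log2 change of -0.95 ± 0.10 on array 2. After quantile normalisation the changes on choice arrays 1 and 2 were -1.13 and -1.01. As deposited its array 1 signal was above both no choice signals and near the Bacillus median of 126.4. After cyclic loess all 13 Jonah genes were higher on array 1, so the fall of Jon25Biii rests on array 2.

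**Figure D3:**
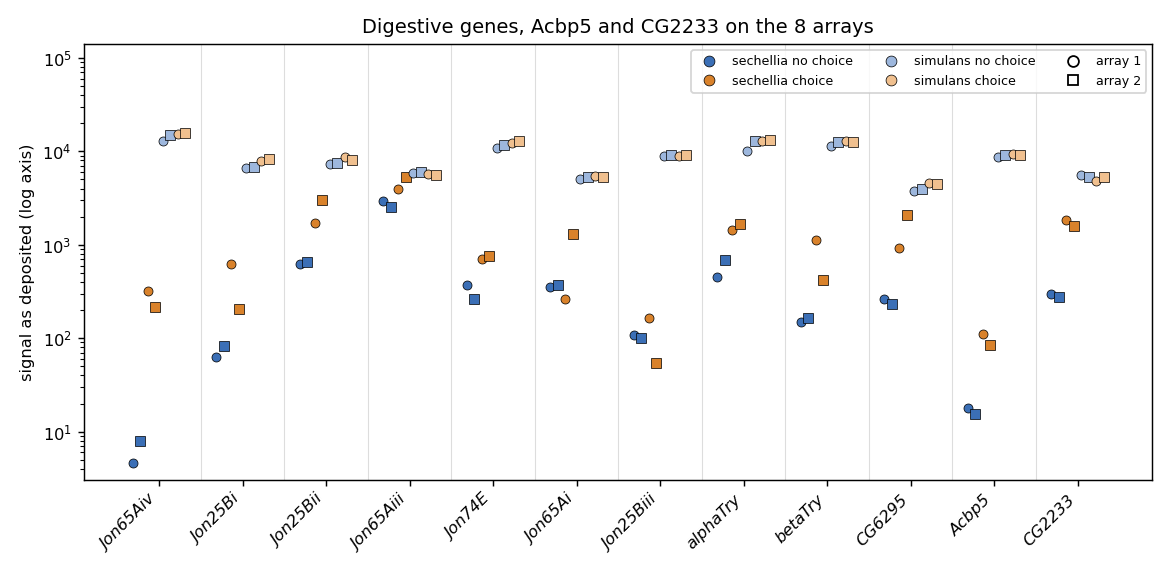
Deposited signal (log axis) of 10 digestive genes, Acbp5 and CG2233 on each of the 8 arrays, with colour for the group, circles for array 1 and squares for array 2. In each gene except Jon65Ai and Jon25Biii both sechellia choice points lie above both no choice points, and in all 12 genes every sechellia point lies below every simulans point.

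Trypsins and lipases held fewer calls, and their medians on choice arrays 1 and 2 were -0.02 and 0.22 for the trypsins and 0.25 and 0.09 for the lipases. The signal of alphaTry, a digestive trypsin, was 452.1 and 689.4 in no choice and 1448.3 and 1664.6 in choice, and that of betaTry, its neighbour, was 150 and 163.3 against 1134.7 and 416. Both genes had choice signals above no choice without overlap as deposited, as in 28.9% of all probe sets. With 7 arrays they rose by 1.58 and 1.41. These 2 genes are near-identical copies in D. melanogaster, so their probe sets may share RNA. CG6295, a predicted lipase, had 259.8 and 234.3 against 925.2 and 2093.2, with both choice arrays higher and array 2 the highest. It was called with 8 arrays (2.50 ± 0.32, adjusted p = 0.0475) but not after quantile normalisation (adjusted p = 0.0692). CG6283, another predicted lipase, was called with 7 arrays only (0.80 ± 0.09, adjusted p = 0.00473) and was 0.25 higher on choice array 1.

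In D. simulans these genes were bright in both treatments, and none of the digestive genes named here changed with choice by limma. The interaction was called with 7 arrays for 5 of the 13 Jonah proteases as higher in sechellia and for 1, Jon25Biii, as lower. Over all probe sets it was called for 1.23%, and for 0.57% as lower. With the 8 arrays as deposited the interaction was called for 2 probe sets in all (0.0107%), those of Jon65Aiv (adjusted p = 0.00533) and CG2233 (2.66). For Jon65Aiv it was 3.79 on the log2 scale with the no choice signals raised to background. This is no firm bound, since it keeps choice array 1 with its raised background. After quantile normalisation neither of the 2 was called (adjusted p = 0.0656 and 0.133), and 3 others were, Cp36, Cp38 and Jon25Bii. A set of 9 probe sets very bright in simulans and dim on no choice array 1 allows the sechellia arrays to be read as a percentage of the simulans mean. On choice array 2 and no choice array 2 respectively, Jon25Bi stood at 2.74% and 1.12%, betaTry at 3.36% and 1.32%, CG5568 at 5.02% and 0.728%, epsilonTry at 0.434% and 1.57%, and Jon25Biii at 0.598% and 1.11%. Of the 9, 7 stood higher on choice array 2 than on no choice array 2, and epsilonTry and Jon25Biii stood lower. As deposited 6330 of 11982 genes were higher on choice array 2 than the no choice mean. Choosing probe sets dim in no choice favours a rise in choice, and dividing by 1 simulans mean leaves the sechellia comparison unchanged. The count is therefore no separate support for a rise.

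**Figure D4:**
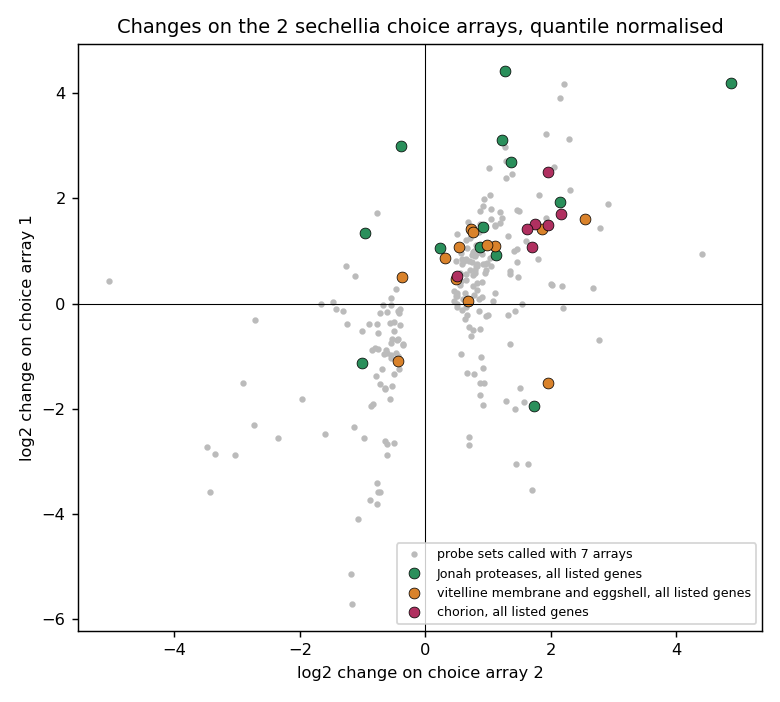
Change on choice array 1 (vertical) against change on choice array 2 (horizontal), both as quantile-normalised log2 differences from the mean of the no choice arrays. The 248 grey points passed the 7-array test, and coloured points are all listed chorion (7), vitelline membrane and eggshell (13) and Jonah protease (13) genes; the chorion genes all lie in the upper right, and Jon65Ai and Vm32E lie in the lower right.

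Immune genes rose in small number. Mtk encodes metchnikowin, an antimicrobial peptide of the fat body, and PGRP-SB1 a secreted peptidoglycan recognition protein. Mtk had signals of 2904.6 and 3080.3 in no choice and 5039 and 7052.8 in choice, and PGRP-SB1 had 686.2 and 731.8 against 1700.3 and 2024.8. For each gene the choice arrays lay above no choice without overlap as deposited, as in 28.9% of all probe sets. With 7 arrays Mtk rose by 1.24 ± 0.10 (adjusted p = 0.000793) and PGRP-SB1 by 1.52 ± 0.15 (adjusted p = 0.00285), and with 8 arrays neither was called (adjusted p = 0.301 and 0.091). In simulans Mtk rose as well, from 408.2 and 369.7 to 1939.5 and 1993.9, by 2.34 ± 0.21 with 8 arrays (adjusted p = 0.0206), and the interaction of -1.10 ± 0.13 with 7 arrays (adjusted p = 0.00721) was lower for sechellia, where the rise was smaller.

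Of 22 listed antimicrobial peptides 2 rose with 7 arrays, Mtk and the Bomanin BomS2 (275.3 and 173.3 against 925.4 and 841.5, a change of 1.95 ± 0.27, adjusted p = 0.015). On both choice arrays 12 of the 22 were higher and 2 lower, against 27.6% and 30.4% of all genes, and 1.24% of all genes were called higher with 7 arrays. DptB, a diptericin, and edin, an infection-induced peptide, did not pass: DptB had 264.8 and 298.1 against 621.6 and 1332.1 (adjusted p = 0.076 with 7 arrays) and edin had 86.1 and 109.5 against 409.1 and 677.7 (adjusted p = 0.0916). PGRP-LB, which degrades peptidoglycan in the gut, was called at 0.93 ± 0.17 (adjusted p = 0.0463). LysS, a lysozyme of the digestive tract, had 28.3 and 40.1 against 742.7 and 174.7, and was called at 2.38 ± 0.26 (adjusted p = 0.00426).

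Hormone, lipid and peptide genes contributed few calls, 3 of them among the 45 genes of the juvenile hormone and ecdysone list. Jhbp5, annotated as a juvenile hormone-binding protein, had signals of 570 and 585.3 in no choice and 1324.1 and 2078.1 in choice, and was called after quantile normalisation of 8 arrays (1.64, adjusted p = 0.0157). Both choice arrays were higher. Its interaction with 7 arrays was 2.43 (adjusted p = 0.000105), since in simulans the change was -0.58. Nplp2, a neuropeptide-like precursor gene, had 1549.1 and 1747.4 against 2045.2 and 4422.9 and rose by 1.43 ± 0.11 with 7 arrays (adjusted p = 0.000651). Lsd-1, a perilipin that coats lipid droplets, had 1291.9 and 1327.5 against 1545.3 and 2534.7 and rose by 0.95 ± 0.09 with 7 arrays (adjusted p = 0.00161). Of 16 serum, lipoprotein and iron proteins of the haemolymph NLaz, a lipocalin, was called (979 and 1006.6 against 946.9 and 1526, a change of 0.62 ± 0.10, adjusted p = 0.0276), and 9 of the 16 were higher on both choice arrays and 1 lower, against 27.6% and 30.4% of all genes. The 13 desaturases, elongases and synthases, which make fatty acids and cuticular hydrocarbons, gave 0 calls by limma with 7 arrays, with 5 at an unadjusted p below 0.05, and the 5 Turandot stress peptides gave 0, with 0. Jhbp3, annotated like Jhbp5, had 982.9 and 992.3 against 970.6 and 1394.6 and rose by 0.50 ± 0.09 with 7 arrays (adjusted p = 0.0463). E23, an ecdysone-responsive transporter gene, fell, with a change of -0.56 ± 0.10 (adjusted p = 0.0496). The 20 genes of insulin and nutrient signalling gave 0 calls by limma with 7 arrays, 6 of them at an unadjusted p below 0.05, with 11 lower and 4 higher on both choice arrays, against 30.4% and 27.6% of all genes.

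Detoxification genes, which act on foreign compounds, gave 6 rises and no fall among 169 with 7 arrays, where 1.24% of all genes rose. With 8 arrays limma called 0 of them, as deposited or quantile normalised, with 33 and 15 at an unadjusted p below 0.05. Of all probe sets 13% and 9.57% were below it in these fits. Cyp6g1, a cytochrome P450 linked to insecticide resistance in D. melanogaster, had signals of 570.2 and 782.6 in no choice and 1656 and 1453.5 in choice, and Cyp6a19 had 408.4 and 330.3 against 720.6 and 749.4. The choice arrays were higher for each, with changes of 1.12 ± 0.16 (adjusted p = 0.0191) and 1.03 ± 0.15 (adjusted p = 0.0181). Cyp9f2 and Cyp4e2 were called higher on array 2 (0.98 and 0.93) but lay 0.23 and 1.5 lower on array 1. GstE6, a glutathione transferase, rose by 0.73 (adjusted p = 0.0473) and was 0.83 higher on array 1, while GstE2 rose by 1.0 (adjusted p = 0.0354) and was 0.49 lower there. The 35 UDP-glycosyltransferases and the 14 carboxylesterases gave 0 calls by limma, with 2 and 4 at an unadjusted p below 0.05.

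Chemosensory genes changed little in bodies. Of 47 odorant-binding proteins 3 were called higher with 7 arrays, Obp99a (1.39), Obp19c (1.05) and Obp56e (0.93). Only Obp56e was also higher on choice array 1, by 0.58, with signals of 92.5 and 104.6 in no choice and 363.3 and 187.7 in choice. Obp99a had 332.2 and 341.4 against 258.6 and 882.8, so its groups overlapped, and so did those of Obp19c, whose other probe set did not pass the test (adjusted p = 0.869). The 57 odorant receptors and 56 gustatory receptors gave 0 calls by limma, with 4 and 1 at an unadjusted p below 0.05, and of 53 ionotropic receptors only Ir76a was called, lower by 1.64 on array 2 (log2 change -1.64, adjusted p = 0.0364), with 133.8 and 133.7 against 340.7 and 42.8. The 23 Osiris genes, studied in D. sechellia for tolerance of octanoic acid, gave 0 calls by limma with 7 arrays and 0 at an unadjusted p below 0.05.

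Genes of basic cell functions were mostly without calls. The lists for flight and body muscle (23 genes), oxidative phosphorylation (77), the vacuolar proton pump (31), mitochondrial ribosomal proteins (71), the proteasome (40), cuticle proteins (124), the circadian clock (11) and the dopamine pathway (12) gave 0 calls by limma with 7 arrays. At an unadjusted p below 0.05, 56 of these 389 genes (14.4%) passed, against 15.9% of all genes. Of 40 cytoplasmic ribosomal proteins 1 was called, RpL37-1 (0.86, adjusted p = 0.0139). Of 18 heat shock proteins and chaperones Hsp110 fell (log2 change -0.46, adjusted p = 0.0486), and 10 were lower on both choice arrays and 3 higher, against 30.4% and 27.6% of all genes.

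**Figure D5:**
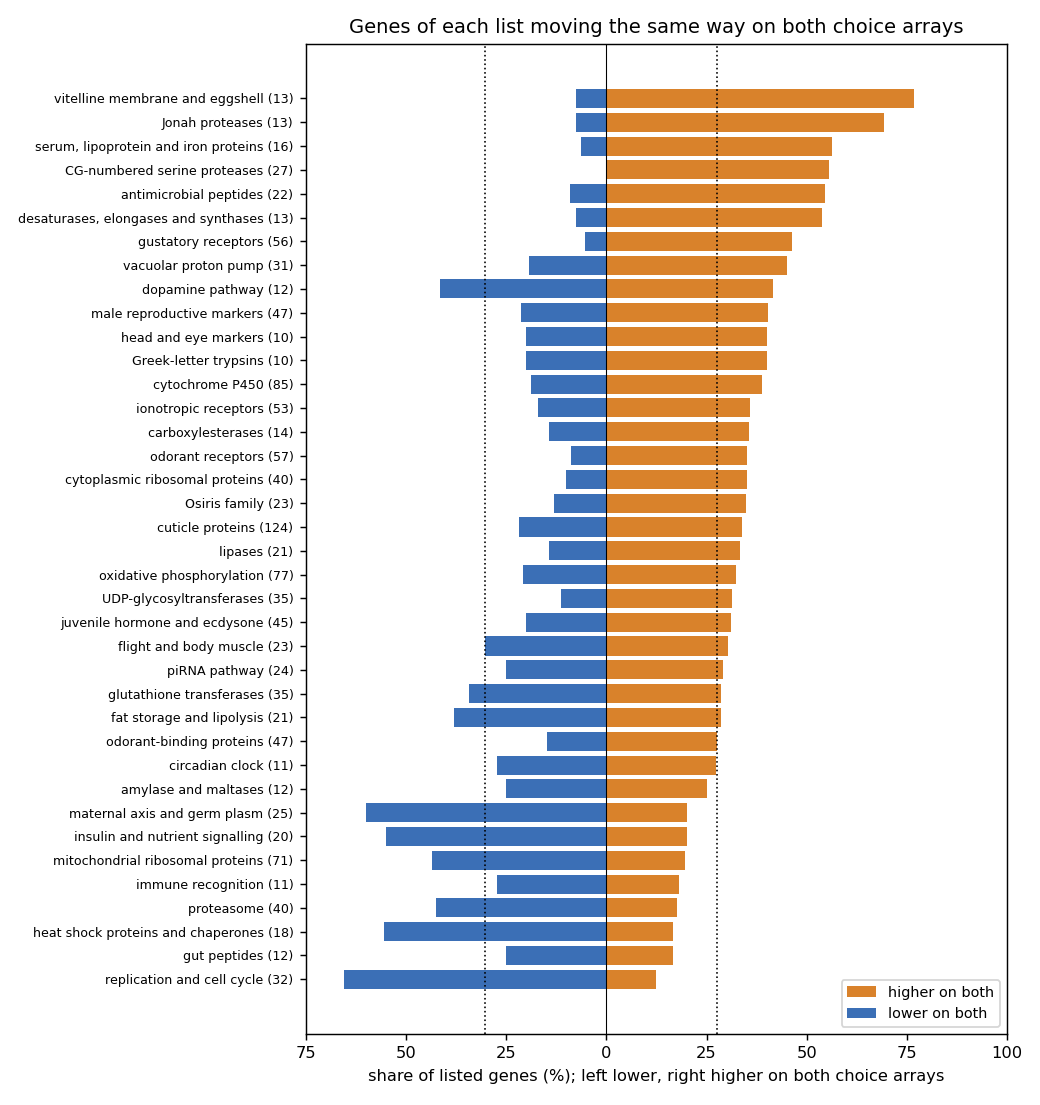
For each list of at least 10 genes (number in brackets), the share of genes that were higher on both choice arrays (right, orange) or lower on both (left, blue) after quantile normalisation; dotted lines give the shares over all 11982 genes, 27.6% and 30.4%. Eggshell and Jonah genes extend farthest to the right, and replication and cell cycle and maternal axis genes farthest to the left.

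Some genes outside the themes had the highest or lowest changes that both choice arrays shared. Apart from Jon65Aiv and CG2233, those higher on both arrays that were called with 7 arrays were LysS and sub, a kinesin of the meiotic spindle (32.6 and 34.6 against 373 and 185.7, a change of 2.47 ± 0.45, adjusted p = 0.0427). Among the lowest on both after quantile normalisation was Nup160, a subunit of the nuclear pore. It had 208.2 and 167.9 against 131.1 and 36.5 (log2 change -2.36 ± 0.36 on array 2). Its array 1 signal lay near the Bacillus median of 126.4 there, so its fall rests on array 2. D19B, a zinc finger gene, had 179.3 and 258.2 against 190.6 and 56.9 (-1.92 ± 0.32 on array 2). The no choice and choice signals of D19B overlapped as deposited. For alka, a chloride channel gene, with 83.2 and 109.3 against 87.3 and 8, both choice signals lay below their Bacillus controls. Its fall of 2.96 on array 2, on the log2 scale, is therefore a bound over background. The controls of array 1, at 126.4, exceed both no choice signals of alka, so array 1 could show no fall. With the 8 arrays as deposited no gene was called lower, and after quantile normalisation 1 gene was, Nnp-1 (4727.4 and 4616.6 against 1677.7 and 2602.9, a change of -0.82 ± 0.08, adjusted p = 0.0237), named after its value was seen.

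Markers of tissues were summed for each array. The ovary and midgut sets include genes named above as changed, such as Cp36 and Jon25Bii, so their sums partly repeat those results. Of the midgut markers outside the proteases, Mal-A1 changed by -0.51 on array 1 and 0.06 on array 2 after quantile normalisation. For mag, a lipase, these changes were 1.94 and 0.11. All 10 ovary and eggshell markers lay above the Bacillus controls on all 8 arrays. So did 6 of 8 midgut, all 5 fat body and all 4 muscle markers. The same held for 2 of 4 head and eye and 10 of 18 male reproductive markers. On each array 78.02% to 89.84% of all probe sets lay above these controls, so the counts cannot tell which tissues are present. The summed signal of ovary and eggshell markers was 108969 and 125822 in no choice and 80804 and 165751 in choice, lower on array 1 and higher on array 2. That of midgut markers was 8831 and 9021 in no choice and 11735 and 15576 in choice, higher on both arrays. That of fat body markers was 43232 and 45942 against 22725 and 50825, and that of muscle markers 12339 and 12846 against 8952 and 14711, again with array 1 lower and array 2 higher. The 4 head and eye markers, of a part that the label does not name, summed to 703 and 657 against 1921 and 759. The 18 male reproductive markers summed to 1142 and 1229 against 6516 and 1403, high only on choice array 1. After quantile normalisation the median change of the 47 listed male genes was 0.92 on choice array 1 and -0.03 on choice array 2, where that of all genes was -0.05 and -0.01. On array 2 alone fat body and muscle sums rose with midgut and eggshell genes. The fat body markers were not uniform there: Yp1, Fer1HCH and Tsf1 were above both no choice arrays, apolpp lay between them and Lsp2 below. Yp1 is counted in both the ovary and the fat body sets. The part of fat body and muscle in the results was not tested.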

How the data were processed

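The authors deposited an intensity per probe set on a linear scale. Per the submitters' processing notes MAS5 was used; its version and settings are not given in the sources used here. With 2% trimmed at each end the mean was 500 on each of the 8 arrays, so the authors' values carry their scaling, and they were taken to log2 without further scaling except where quantile normalisation is named. All 183 control probe sets were left out and 18769 kept. Of these, 13647 carried 1 gene symbol in the platform annotation, 402 several and 4720 none. A gene is given by its brightest probe set (11982 genes), and the brighter genes are the 9562 outside the dimmest 30% of probe sets. No probe, promoter or protein sequence was used here.

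A mean per group of species and treatment was fitted in limma 3.58.1 (R 4.3.3; lmFit and eBayes, trended by intensity), with 4 residual degrees of freedom for 8 arrays and 3 for 7. Contrasts were choice minus no choice in sechellia, the same in simulans, and their difference. A probe set is called where its p, adjusted by Benjamini-Hochberg over all 18769, is below 0.05, and errors are the fit's standard errors. An exact permutation test of 2 arrays against 2 cannot go below a two-sided p of 0.333. The script was checked on simulated data. Where both signals of a group lie below the median of 27 Bacillus controls on their array, a change is printed as a bound over that median.

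Members and the 43 gene lists were chosen with earlier results of these data known. Named genes are those called with 8 arrays, those with the highest and lowest change shared by both choice arrays (12 each way), up to 4 members of each list called with 7 arrays or else up to 2 as values, and tissue markers. Chorion and eggshell genes were given beyond that rule, and CG13083, which lies next to the threshold, and Nnp-1 were added after their values were seen. Deviations of same-numbered arrays correlated between -0.10 and 0.02, and replicate number was left out of the main fit. With 2 arrays per group these values cannot show whether same-numbered arrays belong together. Alternatives were other scalings, a filter and a floor of 16 for dim signals, other variance models, a replicate block and leaving out each array. Comparing signs with no array shared, and among probe sets above background, was added after seeing the data.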

Additional observations from a re-analysis of the deposited data

Results flagged for a closer look

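The choice effect differed between the species, by a test of the difference in the 8-array limma fit, for Jon65Aiv, with a fitted log2 difference of 5.29 (adjusted p = 0.00533), and for CG2233, with 2.66. Both no choice signals of Jon65Aiv lie below background, and with them raised to it the difference was 3.79 on the log2 scale. That value keeps choice array 1 at 320.4, where the Bacillus median was 126.4, so it is no firm bound. In both genes the sechellia choice arrays were above the no choice arrays, and the simulans change was 0.15 and -0.09. After quantile normalisation of the 8 arrays neither was called (adjusted p = 0.0656 and 0.133). Neither was called as deposited when 1 of the simulans arrays was left out, where the count was 0.

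Control probe sets outside the comparison gave signal on 1 array. The median of the 27 Bacillus controls was 126.4 on sechellia choice array 1, which was 5.88-fold the highest median among the other 7 arrays (21.5). The cause was not tested.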

How the results depend on the processing

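Counts of calls for sechellia choice moved with nearly every setting. The 9 calls with 8 arrays became 20 after quantile normalisation, 1 after median centring, 53 after cyclic loess, 5 with signals under 16 raised to 16, 0 with the 4 sechellia arrays only (687 at an unadjusted p below 0.05) and 0 without an intensity trend (1647), 5 with array weights and 297 after quantile normalisation of 7 arrays. With a replicate block it was 8. Leaving out each array gave between 1 and 11818 calls, the highest without sechellia choice array 2, when array 1 stands for the group; it was 248 without array 1, 1 without either no choice array and 2 without any simulans array. The 2 interaction calls became 0 after median centring (803 at an unadjusted p below 0.05 by limma), 23 after cyclic loess, 0 without an intensity trend (920), 13 with array weights, 1 with a replicate block and 313 after quantile normalisation of 7 arrays, and leaving out each array gave between 0 (without any simulans array) and 8964 (without sechellia choice array 2), with 231 without choice array 1 and 1 without either no choice array.

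The count of 10780 shared signs ran from 7426 to 11276 under all alternatives, and was 10112 with the pairing that stands for a replicate block. The lowest count is from the 12846 probe sets above background on all 4 arrays, of which it is 57.8%. Many signs would be shared without any effect of choice, so a narrow range of this count is no measure of stability. The 1122 shared changes of at least 2-fold became 380 without the dimmest 30% of probe sets. Shares by direction depended on scaling: of the shared signs, 7723 were higher and 3182 lower as deposited, and 4446 and 6830 after median centring. Among shared changes of at least 2-fold, 1511 were higher and 13 lower as deposited. Leaving out a no choice array gave 11180 and 11213 shared signs, and 1512 and 1614 shared 2-fold changes.

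Of 154 named genes under all settings, 2274 of 2748 values kept direction and side of the threshold, and 10 reversed. Several settings, such as leaving out a simulans array or the intensity trend, cannot move the sechellia log2 change itself. These totals are therefore no measure of stability. CG10472 changed from -0.11 to 0.47 after quantile normalisation of 7 arrays. Across arrays left out, the log2 changes ran from -0.77 to 0.55 for CG10472, from -0.49 to 1.85 for Jon65Ai, from -1.64 to 1.35 for Ir76a, from -0.73 to 0.98 for Cyp9f2, from -2.53 to 1.61 for Ugt37B1, from -0.72 to 0.86 for RpL37-1, from -3.45 to 3.09 for sa, from -0.48 to 0.57 for Vm26Aa and from -0.36 to 0.60 for Tsf1, with the opposite signs coming from choice arrays 1 and 2. The cause was not tested. Depth is not defined for arrays, and 2 arrays per group and the raised background of choice array 1 limit what dim genes can show.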
